A study of Danio rerio with 8 samples.

Results

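*traf3ip1*, the gene mutated in *elipsa* zebrafish, encodes Ift54, a subunit of the IFT-B complex of intraflagellar transport. It was examined together with 9 genes of other IFT-B subunits, *ift20*, *ift46*, *ift52*, *ift57*, *ift74*, *ift80*, *ift81*, *ift88* and *ift172*, which are called its partners here. The 10 genes were taken by their symbols, and all 10 were among the 20409 genes of the deposited table. The mutant larvae were *elipsa* homozygotes (*traf3ip1* -/-, allele tp49d), picked by their downward-curled tail. The controls were siblings from the same crosses of heterozygotes, a mixture of wild-type and +/- larvae in unstated proportion, so part of them carried 1 mutant allele. Neither group was treated. Each of 4 clutches from the same parental strain gave 1 mutant and 1 control tube of about 30 whole larvae at 4 dpf, which makes 4 libraries per group. Values are the authors' log2 CPM (reads of a gene scaled to a common library total), and they are not divided by gene length, so levels are compared between libraries and not between genes.

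Intraflagellar transport carries building material along the axoneme of cilia. IFT-B trains, drawn by kinesin-2, move toward the ciliary tip, and IFT-A trains with dynein-2 run back to the base. From work in algae and mammalian cells, IFT-B is divided into a core (IFT-B1), to which Ift46, Ift52, Ift74, Ift81 and Ift88 belong, and a peripheral part (IFT-B2), to which Ift20, Ift57, Ift80, Ift172 and Ift54 belong. Ift54 and Ift20 bind each other directly. Photoreceptors, olfactory neurons, hair cells and the cells that line ventricles and kidney ducts depend on this transport, and mutations in many IFT-B genes cause ciliopathies.

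To place these genes among the other cells of the larva, 9 lists of cell type markers were read in each library. No measured gene of these lists was at the floor of the table in every library. Of 10 photoreceptor markers, 9 were lower in the mutants by limma (1.16% of all genes), and their summed level was 922 to 1060 CPM in mutants and 3475 to 7045 CPM in controls. Of 10 markers of motile ciliated cells, 4 were higher (0.363% of all genes), with a summed level of 44.6 to 53.4 CPM in mutants and 26.8 to 33.9 CPM in controls. All 6 markers of the exocrine pancreas had a negative difference, none was called without a term for the clutch, and all 6 were called lower with it, as were 7.86% of all genes. No neuron, muscle, liver, skin, lens or blood marker was called without the clutch term, where 1.52% of all genes were. With it, 1 of 6 neuron and 1 of 6 muscle markers were called lower. In the same fit 1 neuron marker, 2 of 5 skin and 2 of 4 blood markers were called higher, as were 6.48% of all genes. Photoreceptors and motile ciliated cells both use IFT-B, and what their changes contributed to the values below was not tested. In RNA from whole larvae, fewer cells of a type and less RNA per cell cannot be told apart.

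*traf3ip1* (ENSDARG00000010300) was lower in the mutant than in the control tube of every clutch. Its log2 values were 2.36, 1.88, 1.61 and 2.09 in the mutants of clutches 1 to 4, against 3.03, 2.63, 2.81 and 2.78 in the controls. The highest mutant stayed below the lowest control, a separation toward lower mutant values seen in 3.34% of all genes. On the linear scale the means were 4.03 CPM in mutants and 7.05 CPM in controls. The log2 difference was -0.83 (standard error 0.18, 95% interval -1.22 to -0.43, adjusted p = 0.0751 from limma over all genes), or 56.4% of the control level (95% interval 43.0% to 74.1%). The threshold for a call was 0.1 on the adjusted p, and 1.52% of all genes met it, 1.16% as lower and 0.363% as higher in mutants. Another 481 genes had a more negative difference, and *traf3ip1* held place 251 by its p-value.

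The fall of *traf3ip1* was called with clutch as a block (adjusted p = 0.00679), and it kept this call when any single clutch was left out of that fit (adjusted p from 0.0206 to 0.0362). The block fit called 14.3% of all genes, 7.86% as lower, and 6.32% to 14.1% of all genes when 1 clutch was left out. By its p-value *traf3ip1* held place 564 in the block fit, against 251 without a clutch term. Without a clutch term it was not called when any of mutants 2 to 4 or controls 2 to 4 was omitted (adjusted p from 0.145 to 0.217), when any of clutches 2 to 4 was omitted (adjusted p from 0.308 to 0.458), or when the libraries were re-centred on 8 housekeeping genes (adjusted p = 0.137). The difference stayed between -0.95 and -0.70 whichever library was omitted.

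**Figure D1:**
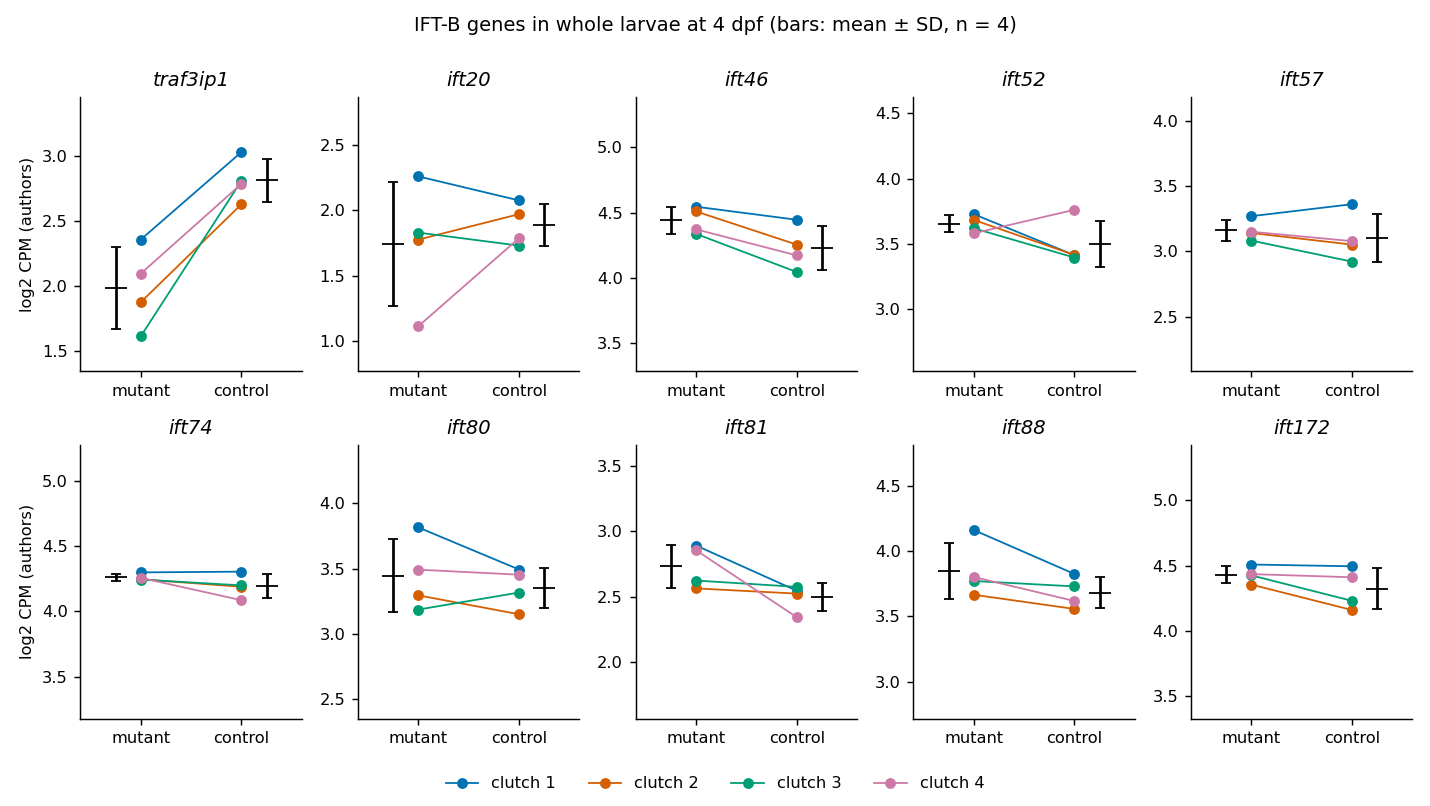
Each panel shows 1 gene, with the authors' log2 CPM on the vertical axis, the 4 mutant libraries on the left and the 4 control libraries on the right. Lines join the libraries of a clutch, black bars give the mean ± SD (n = 4), and all panels span the same log2 range. The groups are apart in 1 panel of the 10, that of *traf3ip1*, where 6.89% of all genes were apart in either direction.

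None of the 9 partners was called in either direction by limma, with or without a term for the clutch, where 1.52% and 14.3% of all genes were called. At an unadjusted p under 0.05, none of the 9 was found without the clutch term and 1, *ift46*, with it, against 12% and 24.8% of all genes. Their differences ran from -0.15 to 0.24 with a median of 0.11, beside a median of 0.03 over all genes. The difference was positive for 8 of the 9, and 57.6% of all genes had a positive one. In all 4 clutches, 4 partners (*ift46*, *ift81*, *ift88* and *ift172*) were higher in the mutant tube and none was lower, where 18% of all genes were higher and 14.4% lower in this way.

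The 5 partners of the IFT-B core all had a positive mean difference that did not pass the test. *ift46*, whose product joins the core and is needed in algae for carrying outer dynein arms, had log2 values of 4.55, 4.51, 4.34 and 4.37 in mutants and 4.45, 4.25, 4.04 and 4.17 in controls. The mutant was above its own control in each clutch, by 0.10 to 0.29, while the groups overlapped because control 1 was high. Its difference was 0.21 (95% interval -0.02 to 0.45, adjusted p = 0.471). With clutch as a block the limma interval was 0.05 to 0.37, and *ift46* was still not called (adjusted p = 0.109). *ift81*, whose product pairs with Ift74 to hold tubulin, had values of 2.89, 2.56, 2.62 and 2.86 in mutants and 2.55, 2.52, 2.57 and 2.34 in controls. The groups overlapped in 1 pair of libraries, mutant 2 and control 3, and the difference was 0.24 (95% interval -0.05 to 0.52, adjusted p = 0.503). *ift74* varied least, with 4.30, 4.25, 4.24 and 4.26 in mutants and 4.30, 4.19, 4.20 and 4.08 in controls. Its difference of 0.07 had an interval of -0.12 to 0.25, so a change as large as that of *traf3ip1* lay far outside it.

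*ift88*, the gene mutated in the zebrafish line oval, was counted at 4.16, 3.67, 3.77 and 3.80 in mutants and 3.83, 3.56, 3.73 and 3.62 in controls. Mutant 1 was the highest of all, the other mutants lay within the range of the controls, and the difference was 0.17 (95% interval -0.11 to 0.45, adjusted p = 0.647). *ift52*, whose product links both parts of IFT-B, had 3.73, 3.68, 3.62 and 3.58 in mutants and 3.41, 3.41, 3.39 and 3.76 in controls. Controls 1 to 3 were all below every mutant, and control 4 was above every mutant, so clutch 4 alone had a negative difference, of -0.18. The mean difference of *ift52* was 0.16 (95% interval -0.09 to 0.41, adjusted p = 0.625), and 0.25 without control 4 (adjusted p = 0.494).

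Among the 4 partners of the peripheral part, 3 had a positive difference and *ift20* a negative one. *ift20*, the direct binding partner of Ift54, which in mammalian cells also sits at the Golgi, had log2 values of 2.26, 1.78, 1.83 and 1.11 in mutants and 2.08, 1.97, 1.73 and 1.79 in controls. The low value was that of mutant 4, which lay 0.67 below its control, and the mutant was higher than its control in clutches 1 and 3. The difference was -0.15 (95% interval -0.66 to 0.37, adjusted p = 0.85), and without mutant 4 it turned to 0.06. This interval is the widest of the 9 partners and holds differences as low as -0.66.

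*ift172* encodes a large subunit that works at the turnaround of trains at the tip. It had 4.51, 4.35, 4.43 and 4.43 in mutants and 4.49, 4.16, 4.23 and 4.41 in controls, with a difference of 0.11 (95% interval -0.11 to 0.32). *ift57*, whose product also goes by the name Hippi, had 3.27, 3.14, 3.08 and 3.15 in mutants and 3.36, 3.05, 2.92 and 3.08 in controls, with a difference of 0.06 (95% interval -0.21 to 0.33). In *ift57* the highest library was control 1 and the lowest control 3, so the controls spanned the mutants. *ift80*, a gene mutated in skeletal ciliopathies in people, had 3.82, 3.30, 3.19 and 3.49 in mutants and 3.49, 3.15, 3.32 and 3.45 in controls. Its libraries of clutches 1 and 4 were high in both groups, and the difference was 0.09 (95% interval -0.25 to 0.43, adjusted p = 0.856). The lower bounds of the intervals of *ift172*, *ift57* and *ift80* were all above the mean difference of *traf3ip1*.

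To ask whether the mutated gene moved apart from its complex, *traf3ip1* was set against the partners within each clutch. In every clutch *traf3ip1* had the most negative of the 10 differences. It was -0.67, -0.75, -1.19 and -0.69 in clutches 1 to 4, and the mean over the 9 partners was 0.17, 0.11, 0.11 and 0.04. The gap between the gene and the partners' mean was -0.93 ± 0.25 (SD over 4 clutches) on the log2 scale, from -1.30 in clutch 3 to -0.73 in clutch 4. The nearest partner in clutch 4 was *ift20*, at -0.67, so the 2 genes were nearly level there, and in the other clutches the lowest partner was at -0.19 or above.

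**Figure D2:**
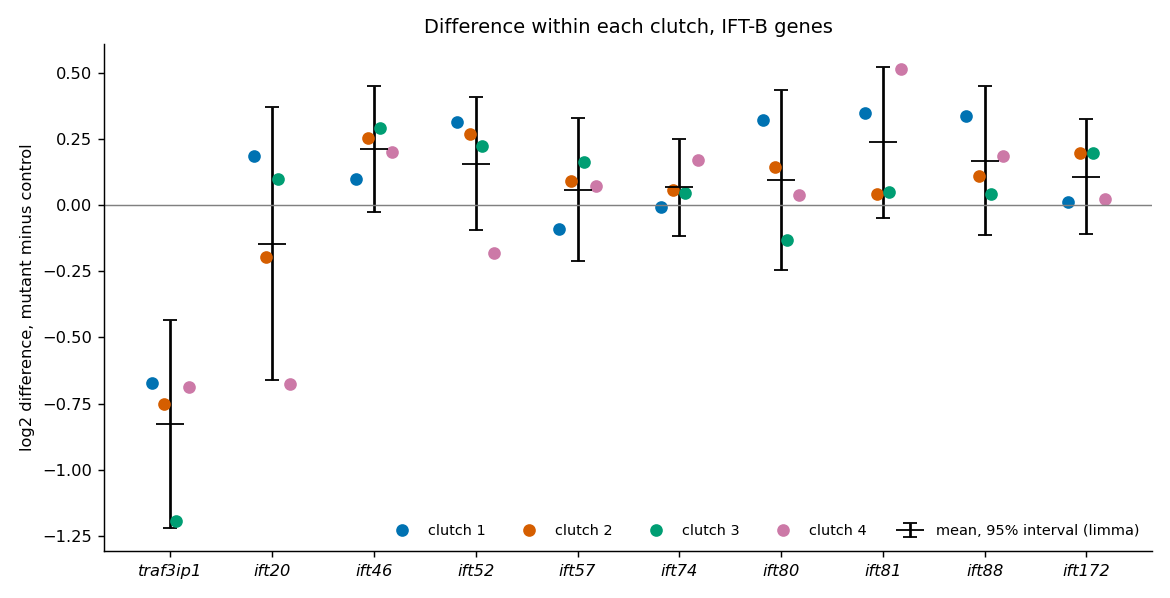
The vertical axis is the log2 difference of mutant minus control within a clutch, with 1 coloured point per clutch for each of the 10 genes, and black bars give the mean with its 95% interval from limma. The points of *traf3ip1* lie between -1.19 and -0.67, and those of the partners lie between -0.19 and 0.51 apart from *ift20* in clutch 4.

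The log2 ratio of *traf3ip1* to each single partner was also compared between the groups, with exact two-sided permutation tests over the 8 libraries. Against 8 of the 9 partners the ratio was lower in all mutants than in any control (exact p = 0.0286 for each, the smallest that 4 against 4 libraries can give, and 0.0321 after Benjamini-Hochberg adjustment over the 9 ratios). The ratio to *ift20* overlapped between the groups (exact p = 0.0857), although it was lower in the mutant of each clutch. These tests do not use the pairing of tubes by clutch. When labels were permuted only within clutches, all 9 ratios, that to *ift20* included, had an exact p of 0.125, the smallest that 4 pairs can give, so the paired test cannot pass the threshold and does not separate *ift20* from the other partners. The 9 ratios share *traf3ip1*, so they are not independent of each other. By itself *traf3ip1* already separated the groups, at 1.61 to 2.36 in mutants and 2.63 to 3.03 in controls. A ratio to a partner that changed little keeps this separation. The ratio tests therefore largely repeat the result of *traf3ip1*, and they cannot show that it moved apart from its complex. The ratio to *ift80*, singled out after its values were seen, varied little: it was -1.46, -1.42, -1.57 and -1.40 in mutants and -0.47, -0.52, -0.51 and -0.67 in controls. Its SD was 0.08 in mutants and 0.09 in controls, while *traf3ip1* itself had SDs of 0.32 and 0.16.

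Values of the IFT-B genes were also compared between clutch 1 and the other clutches. This comparison was not planned and was added after the data were seen. Of the 10 genes, 2 passed its test. Mutant 1 was the highest mutant for all 10 genes, and control 1 was the highest control for 8 of them, the exceptions being *ift52* and *ift81*. Clutch 1 was above the mean of the others for 9 of the 10 genes, as for 56.7% of all genes, and both of its libraries led their groups for 8 of 10 genes, and this was so for 21.2% of all genes. With genotype in the model, clutch 1 minus the mean of clutches 2 to 4 had a median of 0.23 over the 10 genes, beside 0.04 over all genes. *ift88* (0.30, standard error 0.10, adjusted p = 0.068 from limma) and *ift80* (0.34, standard error 0.12, adjusted p = 0.0813) passed the test as higher in clutch 1. Of all genes, 26.9% passed this test and 14.3% passed it as higher, so the count of 2 in 10 was near the background. For *traf3ip1* the value was 0.39 (adjusted p = 0.113) and for *ift20* 0.47 (adjusted p = 0.139), and for *ift52* it was -0.01. The libraries of clutch 1 were low in exocrine pancreas markers, with a mean log2 level of 5.63 against 8.09 in the other clutches, and high in blood markers, with 7.11 against 5.97. What these shifts contributed to the IFT-B values was not tested.

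**Figure D3:**
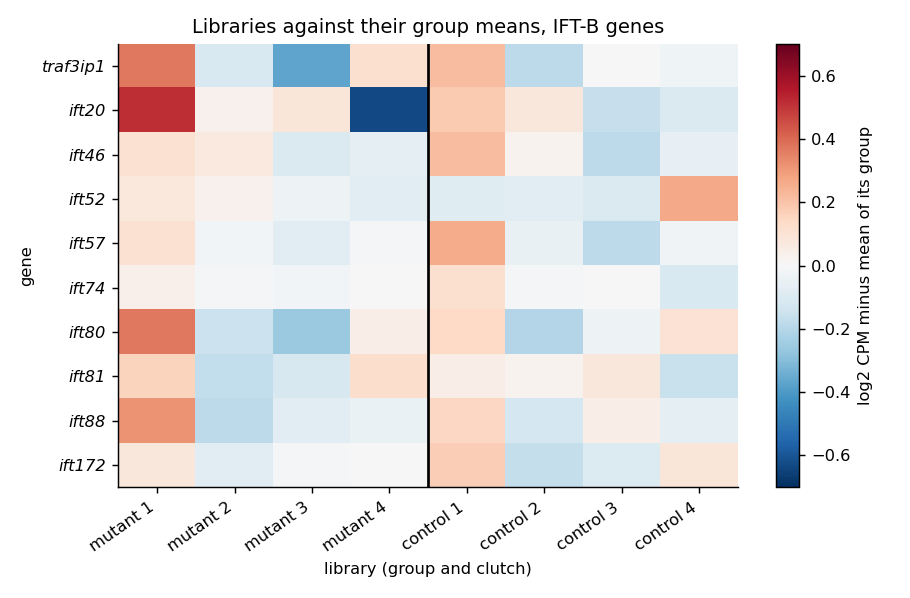
Each cell is the log2 CPM of a gene in a library minus the mean of that gene in its group, with red above and blue below the mean, mutant libraries on the left and control libraries on the right. The column of mutant 1 is above the mean for all 10 genes and that of control 1 for 9, and the bluest cell, -0.63, is *ift20* in mutant 4.

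The other 6 measured IFT-B genes were not called without a clutch term by limma, where 1.52% of all genes were called. In that fit *hspb11* and *ttc26* (33.3%) had an unadjusted p under 0.05, against 12% of all genes. *hspb11* encodes Ift25, which in mammals pairs with Ift27 and serves the export of hedgehog pathway proteins from cilia. Its log2 values were 3.48, 3.84, 3.85 and 4.13 in mutants and 3.74, 4.44, 4.57 and 4.72 in controls. The mutant was below its control in each clutch, by 0.27 to 0.72, and the groups overlapped through control 1. The difference of *hspb11* was -0.54 (standard error 0.21, adjusted p = 0.359, and 0.00817 with clutch as a block). *ift27*, the gene of its dimer partner, had a difference of 0.11 (95% interval -0.19 to 0.41). *ttc26*, which encodes Ift56 and is needed in zebrafish for motile cilia, had 3.47, 3.19, 3.23 and 3.22 in mutants and 3.21, 2.77, 2.83 and 2.99 in controls. Its difference was 0.32 (standard error 0.13, adjusted p = 0.374, and 0.0764 with clutch as a block). *cluap1*, *ift22* and *flr*, which is the deposited symbol of *ift70*, had differences of 0.20, 0.18 and 0.10. Over the 15 IFT-B genes besides *traf3ip1*, 13 had a positive difference, and the block called 1 lower and 1 higher, where it called 7.86% of all genes lower and 6.48% higher.

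Among the other transport genes, no gene of IFT-A, dynein-2 or the BBSome was called without the block, where 1.52% of all genes were. The difference was positive for 10 of 11 genes of IFT-A and dynein-2, with a median of 0.17, beside 57.6% and 0.03 over all genes. By limma, 2 of them (18.2%) had an unadjusted p under 0.05 without the block, against 12% of all genes. With the block *wdr35* alone was called, which is 9.09% of the list against 14.3% of all genes. *wdr35*, an IFT-A gene, had 4.46, 4.16, 4.27 and 4.43 in mutants and 4.12, 3.67, 4.01 and 4.15 in controls. Every mutant of *wdr35* was above every control, as in 3.55% of all genes, and its difference was 0.34 (standard error 0.13, adjusted p = 0.327, and 0.0292 with clutch as a block). The groups were also apart for *ift140*, by a very small margin, with 3.6751 to 3.868 in mutants and 3.410 to 3.6745 in controls. Its difference was 0.25 (adjusted p = 0.36 from limma, and 0.101 with clutch as a block).

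The BBSome rides on IFT trains and carries membrane proteins out of cilia. Its list held 10 measured genes, among them *arl6* and *lztfl1*, whose products are not subunits of it. Of these 10 genes, 8 had a negative difference, with a median of -0.12, where 57.6% of all genes had a positive one. By limma, 3 (30%) had an unadjusted p under 0.05 without the block, against 12% of all genes. With the block *bbs4* and *bbs2* were called lower, as were 7.86% of all genes. *bbs4* had 2.99, 2.59, 2.81 and 2.73 in mutants and 3.37, 3.21, 3.43 and 3.16 in controls, with every mutant below every control, as in 3.34% of all genes. Its difference was -0.51 (standard error 0.12, adjusted p = 0.123, and 0.0173 with clutch as a block), and that of *bbs2* was -0.36 (adjusted p = 0.373, and 0.055 with the block).

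Of 7 kinesin-2 genes, whose products draw IFT-B trains, none was called by limma. This held without and with the block, where 1.52% and 14.3% of all genes were called. The differences of *kif3a*, *kif3b* and both *kifap3* genes lay between -0.08 and 0.08. *kif17*, the gene of a homodimeric kinesin-2, was 0.56 above controls (limma adjusted p = 0.393, standard error 0.24). Within single clutches its difference ran from 0.05 to 1.19, and its means were low, 1.38 CPM in mutants and 0.95 CPM in controls. Of the 7 it alone (14.3%) had an unadjusted p under 0.05 by limma without the block, against 12% of all genes.

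**Figure D4:**
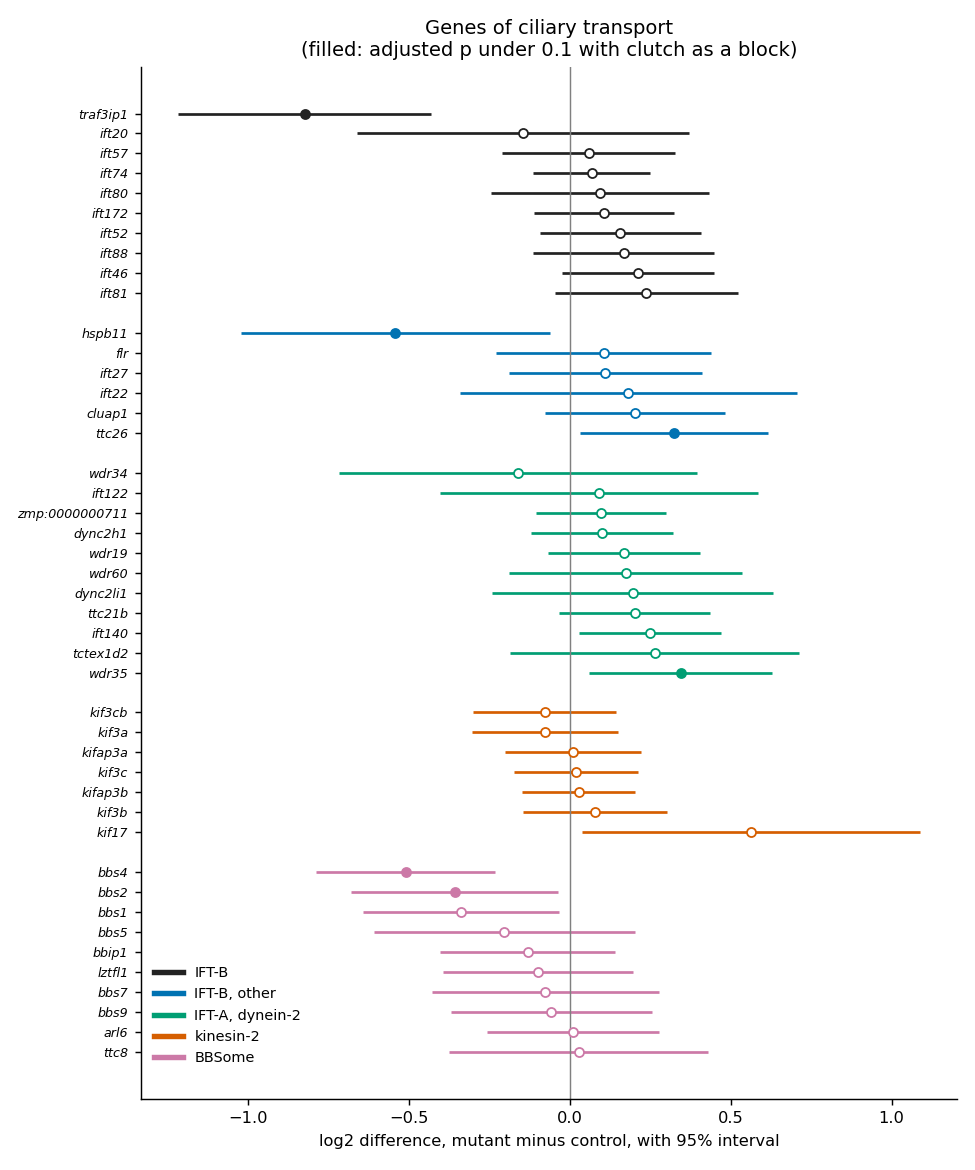
The horizontal axis is the log2 difference of mutant minus control with its 95% interval from limma without a clutch term, for genes grouped by complex. Filled points had an adjusted p under 0.1 with the clutch block, and *traf3ip1*, at -0.83, is the lowest of those drawn.

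Mutants and siblings differ by genotype at *traf3ip1* and so may also differ at genes linked to it. The 50 measured genes nearest to it, 25 on each side in the gene order of a RefSeq assembly, were therefore read in the same fit. Of these, 3 (6%) were called, 1 as lower and 2 as higher, where 1.52% of all genes were called. The block fit called 18 (36%), 9 of them as lower and 9 as higher, where it called 14.3% of all genes. Around the 9 partners, 0% to 2% of the neighbours were called without the block and 3.85% to 16% with it. *ift74* lies near an end of the gene order of its chromosome and had only 26 neighbours. The contrast with the partners without the block depended on the window. With 10 genes on each side 1 of 20 (5%) was called around *traf3ip1* and 0% to 5% around the partners, and with 50 on each side 3 of 100 (3%) and 0% to 3%, the upper values being those of *ift81*. With the block, these windows held 40% and 27% called around *traf3ip1*, against 5% to 25% and 3.92% to 17% around the partners. The median absolute log2 difference of the neighbours of *traf3ip1* was 0.18, beside 0.13 over all genes and 0.06 to 0.15 around the partners. When 1 clutch at a time was left out of the block fit, 16% to 34% of the neighbours were called, where 6.32% to 14.1% of all genes were. What linkage or other differences between the groups contributed to these calls was not tested.

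The called neighbours were *col28a2a*, a collagen gene, *klhl41a*, a gene of muscle fibres, and *zgc:92380*. *col28a2a*, the 19th gene on one side, lay at 5.83 to 6.36 in mutants and 4.26 to 5.02 in controls, with a difference of 1.47 (standard error 0.17, adjusted p = 0.00321). *klhl41a* differed by -0.51 (adjusted p = 0.0944) and *zgc:92380* by 0.33 (adjusted p = 0.0937), each without overlap of the groups. Among the lowest differences near *traf3ip1* were that of *lct*, a lactase gene, with -1.57 (adjusted p = 0.0217 with the block) and that of *vil1*, the villin gene of gut brush borders, with -1.37 (adjusted p = 1.99e-05 with the block), and neither was called without it. Both were also low in clutch 1, where *vil1* had 5.37 in the mutant and 6.70 in the control, against 6.77 or more in the other libraries. The means of *lct* were low, 0.57 CPM in mutants and 1.62 CPM in controls. The BBSome gene *bbs5* is the 18th gene on the same side as *col28a2a*, and its difference of -0.20 was not called.

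**Figure D5:**
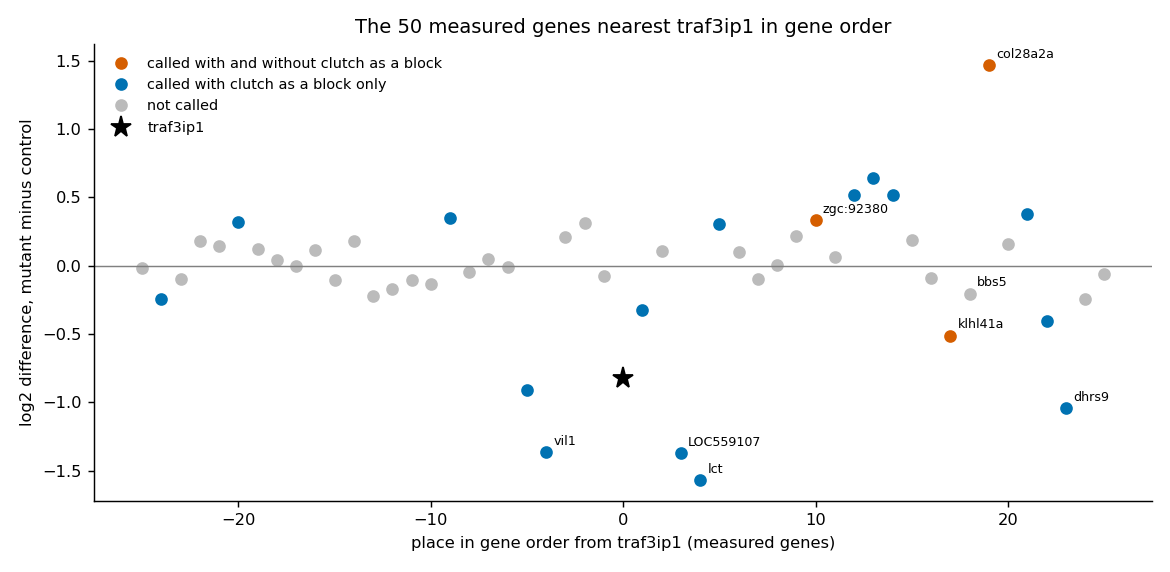
The horizontal axis is the place of a measured gene in gene order from *traf3ip1*, and the vertical axis its log2 difference of mutant minus control. Orange points were called with and without clutch as a block, blue points with the block only and grey points in neither fit; 18 of the 50 points are coloured.

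The profile most like that of *traf3ip1* over the 8 libraries was sought among 15096 genes with a mean log2 value of at least 1. Genes whose symbol held a colon or began with LOC, zgc or si were left out. This also drops any properly named gene that begins with si. Likeness was the root mean square difference between the profiles after each gene was centred on its own mean. The 5 likest were *slc1a8a*, a gene of the glutamate transporter family (0.133), *gli1*, a transcription factor gene of the hedgehog pathway (0.148), *rabl3*, a small GTPase gene (0.165), *hhip*, a hedgehog-binding protein gene (0.171), and *mef2ab*, a muscle transcription factor gene (0.172). The median over all genes compared was 0.507, and the partners were at 0.465 to 0.556, so none of the 9 was among the likest. *gli1* had 4.07, 3.76, 3.79 and 4.09 in mutants and 4.91, 4.73, 4.56 and 4.73 in controls. Like *traf3ip1* it was highest among controls in clutch 1, but among mutants it was highest in clutch 4 and *traf3ip1* in clutch 1. The 5 differences were -0.85, -0.81, -0.55, -1.02 and -0.74 in the order named, and since the genes were chosen for their likeness to *traf3ip1*, these are a description only.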

How the data were processed

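RNA of 8 tubes of whole larvae was sequenced on the DNBSEQ platform. According to the methods, the authors cleaned reads by SOAPnuke, mapped them to genome (HISAT2) and transcripts (Bowtie2), took gene counts from RSEM, filtered on the mean CPM, and used voom from limma. The deposited table holds log2 CPM. Its sorted values are nearly equal between libraries, with sums of linear values from 997999 to 998008 and a highest log2 value of 14.04 in each, as quantile normalization leaves them. Such values do not keep the depth of a library, which is unknown, so no counting interval could be made. The submitters' notes name the build GRCz11. A second deposited table holds the authors' own comparison (log2 differences, statistics and p-values). Only its gene identifiers and symbols were used.

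The comparison of mutants and controls used limma 3.58.1 (R 4.3.3, empirical Bayes with a mean-variance trend, two-sided, Benjamini-Hochberg adjustment over all 20409 genes), without a clutch term, since the paper names none. All genes of the table entered as deposited. A fit that blocks on clutch was an alternative. The labels number the clutches and each pair of tubes was processed together. Within clutches 1 to 4, mutant and control deviations from their group means had correlations of 0.64, 0.325, 0.334 and 0.458 across genes. The script was tested on simulated data. Permutation tests used SciPy 1.17.1, and figures matplotlib 3.10.9.

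The members and lists were chosen with earlier results of these data known. Text names all 10 members, called genes of the transport lists (or the one with the smallest p), called neighbours of *traf3ip1*, and the 5 likest profiles. Other genes named were chosen after their values were seen. Older symbols and gene order came from a RefSeq table of another assembly, GRCz12tu, so no coordinates are given. It has an entry for 96.2% of the gene identifiers. No sequences were analysed here. Alternatives were no trend, robust moderation, array weights, a pseudocount of 1, a minimum mean log2 value of 1, re-centring on housekeeping genes, the clutch block, omission of each library or clutch, and an adjusted p under 0.05. The block without each clutch, the block for the neighbours and ratio permutations within clutches were added after the data were seen. So was the comparison of clutch 1 with the other clutches.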

Additional observations from a re-analysis of the deposited data

Results flagged for a closer look

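In 1 of the 20 sets of 4 libraries formed by the 10 IFT-B genes and both groups, a library stood apart by Dixon's criterion, which chance meets in about 1 of 20 such sets. This was control 4 for *ift52*, with a log2 value of 3.76 against 3.39 to 3.41 in controls 1 to 3.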

How the results depend on the processing

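The number of genes called over the whole table moved most, and the depth behind these values is unknown. Against 311, it was 682 with array weights, 206 at an adjusted p under 0.05 and 2927 with clutch as a block. It ran from 146 (without control 3) to 1091 (without control 1), and was 166 without control 2 and 183, 206 and 176 without mutants 2, 3 and 4. Without 1 clutch it ran from 80 to 1075, and with the block without clutches 1 to 4 it was 2879, 1584, 1289 and 1466.

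*traf3ip1* was the only IFT-B gene of the 10 called, and the count was 0 after re-centring on housekeeping genes (difference -0.80), 0 at an adjusted p under 0.05 (difference -0.83) and 0 to 1 when a library or clutch was omitted (difference -0.95 to -0.70). Pairing by clutch, as a block, kept its call. The partners' median was 0.064 (without mutant 1) to 0.17 (without mutant 3). Of 216 partner values under the alternatives, 5 changed sign and none passed the test: *ift20* was 0.064 without mutant 4 (range when a library is omitted -0.32 to 0.064) and 0.030 without clutch 4, with or without the block, *ift57* was -0.0031 without control 3 (to 0.14 without control 1), and *ift80* was -0.029 without mutant 1 (to 0.18 without mutant 3).

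Of the neighbours of *traf3ip1*, 1 of 20 was called with 10 on each side and 3 of 100 with 50 on each side, no larger shares than around *ift81*, and the block called 18 of the 50, or 17, 12, 9 and 8 without clutches 1 to 4. The block without single clutches, the block for the neighbours and the ratio test within clutches were chosen after seeing the data. The comparison of clutch 1 with the other clutches was also chosen then.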
